A study of Mus musculus with 239 samples.

Results

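The results concern the pregnant cells among 239 single mammary cells profiled. By their labels, 42.7% of all cells were pregnant basal cells and 20.5% (49 cells) were pregnant luminal cells, and both sets are used whole. They came from the fourth mammary glands of female FVB mice of 3 to 4 months, at day 12 of pregnancy (12.5 in the protocol). Both groups were depleted of blood and endothelial cells before the sort, and their labels differ in the gate: intermediate CD24 with high CD29 for basal cells, high CD24 with low CD29 for luminal cells. The other 88 cells (34 virgin basal and 54 virgin luminal), sorted by the same gates, serve only as a second look at named genes. No label names a mouse or a chip, so each group was handled as 1 sample without a replicate check. Genes Cd24a and Itgb1, which encode the sort antigens, were left out of the naming and of the pairs.

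The ducts and alveoli of the mammary gland have an inner layer of luminal cells and an outer layer of basal cells. In pregnancy the luminal cells become secretory alveolar cells under prolactin and progesterone, and take up glucose, amino acids, lipids and metal ions to build milk. The basal layer consists largely of myoepithelial cells, which contract on oxytocin, lay down basement membrane and send ligands such as neuregulin to the luminal layer.

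Below, basal and luminal cells are those of pregnant mice, and the virgin gates are named as such. Values are FPKM, fragments per kilobase of transcript scaled to sequencing depth, so levels are per transcript length. A gene's difference is the mean over cells of log2(FPKM + 1) in basal cells minus that in luminal cells. Differences of at least 1 in size were counted. A mean ± SD is on that log2 scale and describes the spread over cells (all basal and 49 luminal cells), not over animals. Shares are of cells at 1 FPKM or more, with exact Clopper-Pearson 95% intervals. These intervals treat cells as independent draws and cover the counting of cells only, not the spread over animals. The reads carry no molecular identifiers. For a count of 0 cells the limit is taken as 3 cells, apart from those intervals, which is a share of up to 2.94% of basal and 6.12% of luminal cells.

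The cells were mostly what their gates say, with exceptions. Acta2, smooth muscle actin, had a lowest, median and highest value of 2.94, 4846 and 15528 FPKM in basal cells, against 0.0391, 0.453 and 6465 FPKM in luminal cells. Csn2, beta-casein, ran at 0, 1.25 and 1067 FPKM in basal and 583, 25211 and 64837 FPKM in luminal cells, in the same order of lowest, median and highest. Among the basal cells, 4 carried at least 5 of 11 endothelial markers, with Fabp4 at 1647 to 27525 FPKM and a mean log2 level over Acta2, Tagln and Nrg1 of 1.34 to 5.25. That mean was at least 7.65 in the other 98. Of the luminal cells, 1 carried 6 endothelial markers and 1 carried 9 of 10 fibroblast markers, with Col1a1 at 2760 FPKM. A further 4 luminal cells had a mean of 7.20 to 12.00 over those 3 basal markers, against at most 4.27 in the other luminal cells, together with Csn2 at 864 to 24471 FPKM. These 10 cells are kept in the values below. Differences without them are given where a difference printed below came under 1 in size, and in some other cases.

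The depth read from the steps between low FPKM values had a median of 9.09 M fragments in basal cells (quartiles 7.51 and 10.02) and 8.83 M in luminal cells (quartiles 8.13 and 9.22). Genes at 1 FPKM or more numbered 1190 to 4611 per basal cell (median 2734.5) and 1695 to 5089 per luminal cell (median 3653). The 10 most abundant genes held a median of 14.1% of the FPKM of a basal cell and 27.9% of that of a luminal cell. Because gene number differed, results are also given for the 55 basal and 20 luminal cells whose gene number fell between the quartiles of all pregnant cells.

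Across all 18850 genes of the table, 545 (2.89%) were higher by at least 1 in basal cells and 1692 (8.98%) were lower. Of the 7998 genes detected, meaning that the shares of cells with 1 FPKM or more averaged at least 10% over both gates, 542 (6.78%) were higher and 1692 (21.2%) were lower. The median difference over detected genes was -0.38. Among cells alike in gene number the split was 717 higher and 1204 lower, with a median of -0.15. Taken as the log2 ratio of the groups' mean FPKM, 1368 detected genes were higher and 1387 lower. The gene lists below differ in how many of their genes were detected, which bears on how their shares compare with those of all genes.

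Outside contractile, milk protein and keratin genes, the 10 largest differences towards basal cells were led by Sparc. Sparc, a secreted calcium-binding matrix protein, stood at 152, 1062 and 3469 FPKM in basal and 0, 0.0821 and 14005 FPKM in luminal cells. Every basal cell carried it, as did 12.2% of luminal cells. The luminal maximum was the cell with fibroblast markers. Its difference was 8.70, and 9.92 without the 10 cells. With that single cell counted in, the ratio of mean FPKM gave only 1.77 on the log2 scale. After Sparc came 1500015O10Rik, also named Ecrg4 and encoding a secreted peptide precursor, with a difference of 8.45. Nrg1 (8.06), the membrane glycoprotein podoplanin, Pdpn (8.02), and the antiviral membrane protein Ifitm3 (7.97) followed. Cav1 (6.96) and Ptrf, also named Cavin1 (6.31), build caveolae, the small pits of the plasma membrane. Apoe (6.78) carries lipids, Postn (6.78) is a matrix protein and Fstl1 (6.62) a secreted glycoprotein. These 10 genes were also higher in the basal gate of virgin mice, by 2.68 for Cav1 up to 8.74 for Sparc.

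The 10 largest differences the other way were led by Fabp3. Fabp3, which binds fatty acids in the cytosol, stood at 0, 0 and 363 FPKM in basal and 1.99, 2319 and 17036 FPKM in luminal cells. Its difference was -9.01, against -2.31 between the virgin gates. Plin2 (-8.15) coats lipid droplets, and Thrsp (-7.64) promotes fatty acid synthesis. Spp1 (-7.99) is osteopontin, Trf (-7.46) is transferrin, and Clu (-6.74) is the secreted chaperone clusterin. Mal2 (-6.52) works in transport to the apical membrane, Muc15 (-6.87) is a membrane mucin, and Tmprss13 (-6.43) a membrane serine protease. Plet1 (-7.52) is a surface protein of epithelial progenitors. Thrsp differed by -1.36 between the virgin gates, and Spp1 by -9.37.

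The stretches just before the start sites of 4 genes are shown because a motif reading of the promoters follows. They are the marker Acta2 and the creatine kinase Ckb on the basal side, and the marker Csn2 and the galactosyltransferase B4galt1 on the luminal side. They were picked after their values and motifs were seen. Each line gives the 250 bases upstream of the start on the gene's own strand, from RefSeq on GRCm38.p6. Capitals mark GGAATG, the site of TEAD factors, in the first pair, and TTCNNNGAA, the site of STAT factors such as STAT5, in the second pair. Both motifs and the CArG box of serum response factor were searched on both strands, and none of them overlaps another in these 4 stretches. The CArG box was read strictly, as CC, 6 letters that are A or T, and GG. Looser forms with another letter in the middle were not searched or marked, and the Acta2 stretch holds such forms.
Acta2, chr19:34255374-34255623, minus strand: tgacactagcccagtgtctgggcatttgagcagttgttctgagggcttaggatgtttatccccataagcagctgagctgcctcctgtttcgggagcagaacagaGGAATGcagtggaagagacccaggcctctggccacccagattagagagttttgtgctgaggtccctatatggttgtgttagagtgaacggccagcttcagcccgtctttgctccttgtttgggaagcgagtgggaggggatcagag
Ckb, chr12:111672339-111672588, minus strand: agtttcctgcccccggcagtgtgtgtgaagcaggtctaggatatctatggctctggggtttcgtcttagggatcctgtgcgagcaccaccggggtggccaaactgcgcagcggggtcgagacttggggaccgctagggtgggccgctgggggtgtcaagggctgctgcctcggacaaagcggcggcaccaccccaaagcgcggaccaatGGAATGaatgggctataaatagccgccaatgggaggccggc
Csn2, chr5:87699426-87699675, minus strand: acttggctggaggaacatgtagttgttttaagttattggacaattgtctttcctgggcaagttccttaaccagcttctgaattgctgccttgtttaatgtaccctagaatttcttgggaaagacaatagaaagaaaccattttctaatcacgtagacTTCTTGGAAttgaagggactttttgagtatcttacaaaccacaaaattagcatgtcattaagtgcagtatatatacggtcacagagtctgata
B4galt1, chr4:40853985-40854234, minus strand: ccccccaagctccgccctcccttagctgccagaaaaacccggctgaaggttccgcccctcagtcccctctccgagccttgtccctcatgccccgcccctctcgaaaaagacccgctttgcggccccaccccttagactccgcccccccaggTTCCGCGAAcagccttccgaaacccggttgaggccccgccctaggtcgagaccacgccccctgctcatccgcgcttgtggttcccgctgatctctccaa

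The match begins 146 bases before the start in Acta2 and 41 in Ckb, and 93 in Csn2 and 99 in B4galt1. TTCNNNGAA occurred in 65 of 1091 promoters of genes lower by at least 1 in basal cells (5.96%), in 17 of 289 of genes higher (5.88%) and in 6.60% of all 11729 promoters with a single entry. GGAATG or its reverse complement occurred in 13.8% of the promoters of higher genes, 11.5% of those of lower genes and 11.4% of all. The CArG box occurred in 2.42%, 1.01% and 1.29% in the same order. The E-box CANNTG, read by SNAIL and basic helix-loop-helix factors, occurred in 52.9%, 58.7% and 61.4%. Over promoters of detected genes the shares were 6.04% for TTCNNNGAA, 10.2% for GGAATG, 1.28% for the CArG box and 54.7% for the E-box. A match is a string of letters, not a bound site.

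Of 391 transcription factor genes in the table, 213 were detected, 28 were higher by at least 1 in basal cells and 36 were lower. These are 7.16% and 9.21% of the factors, beside 2.89% and 8.98% of all genes. The 28 and 36 were all among the 213 detected factors, so their shares of detected factors are larger than these. The like shares over all detected genes of the table were 6.78% higher and 21.2% lower. The median difference of the detected factors was -0.16. Among cells alike in gene number the counts were 33 higher and 32 lower, and by the ratio of mean FPKM 83 higher and 46 lower. The plot of factor means shows most factors near the diagonal and a few far from it on either side.

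**Figure D1:**
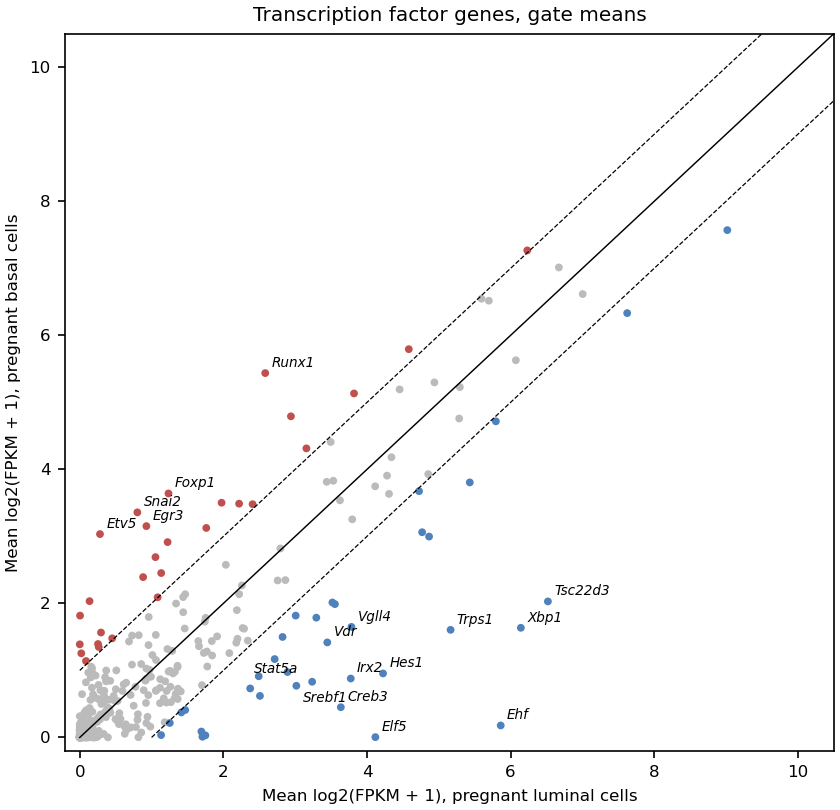
Mean log2(FPKM + 1) of each of 391 transcription factor genes in the basal cells (vertical axis) and 49 luminal cells (horizontal axis), with 1 point per gene. Red points are higher by at least 1 in basal cells (28 genes) and blue points lower by at least 1 (36 genes), the dashed lines mark a difference of 1 either way, and names are given from a difference of 2.

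On the basal side the largest differences were those of Runx1, Etv5, Snai2, Foxp1 and Egr3. Runx1, a runt-domain factor, had a lowest, median and highest value of 0.0418, 56.7 and 277 FPKM in basal cells and 0, 7.56 and 74.1 FPKM in luminal cells. It reached 1 FPKM in 96.1% of basal cells (95% interval 90.3% to 98.9%) and 71.4% of luminal cells (56.7% to 83.4%), so it was spread over both gates at different levels, with a difference of 2.85. Etv5, an ETS factor induced by receptor tyrosine kinase signalling, was more split. It was found in 61.8% of basal cells at up to 418 FPKM and in 6.12% of luminal cells, with a difference of 2.75 in pregnancy and 0.39 between the virgin gates. Snai2, a repressor tied to the basal state and to mesenchymal transition, averaged 3.36 ± 2.94 in basal and 0.80 ± 1.24 in luminal cells, a difference of 2.56. Foxp1, a forkhead factor, averaged 3.64 ± 2.05 in basal and 1.24 ± 1.61 in luminal cells, and Egr3, an immediate early zinc finger factor, differed by 2.23.

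Several basal-side factors were on in part of the basal cells and nearly silent in luminal cells. Trp63, the basal master factor p63, reached 1 FPKM in 51 basal cells (39.9% to 60.1%) and 4.08% of luminal cells (0.498% to 14%). Prdm1, the repressor BLIMP1, was found in 42.2% of basal cells (32.4% to 52.3%) and 0% of luminal cells. Irx4, an Iroquois homeobox factor, was found in 33.3% of basal and 0% of luminal cells, and Id4, an inhibitor of helix-loop-helix factors, in 33.3% of basal and 2.04% of luminal cells. The basal median was under 1 FPKM for all 4 of these genes, while the highest basal cell had 196 FPKM of Trp63, 208 of Prdm1, 297 of Irx4 and 179.6 of Id4. In single-cell libraries a gene at 0 may have been missed, so these shares are of cells with signal.

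Of 15 genes for serum response factor, MEF2, TEAD and their coactivators, 3 were higher (20%, beside 2.89% of all genes) and 2 lower (13.3%, beside 8.98%). Yap1, the coactivator that TEAD factors recruit, differed by 1.27, its partner Tead1 by 1.69 and Mef2c by 1.05. Tead2 went the other way at -1.10, with 0.980% of basal and 34.7% of luminal cells, and so did Vgll4, which competes with YAP for TEAD, at -2.13. Under median-of-ratios scaling Mef2c came to 0.96 and Tead2 to -0.94. Smad7, the inhibitory SMAD of TGF-beta signalling, averaged 4.79 ± 2.39 in basal and 2.94 ± 2.55 in luminal cells, a difference of 1.85. Smad1, which carries bone morphogenetic protein signals, differed by 1.64. Among the hypoxia factors Hif1a differed by 1.36 and Epas1 by 1.32.

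On the luminal side the ETS factor Ehf had the largest difference of any factor, at -5.68. It stood at 0, 0.0285 and 24.7 FPKM in basal and 0.0725, 78.3 and 410.5 FPKM in luminal cells, where 91.8% of cells carried it (80.4% to 97.7%). The other alveolar ETS factor, Elf5, was at 1 FPKM or more in 0% of basal and 81.6% of luminal cells. Trps1, a GATA-type repressor, averaged 1.61 ± 1.92 in basal and 5.16 ± 1.54 in luminal cells, and Gata3, the luminal GATA factor, differed by -1.63 (-3.53 between the virgin gates). Hes1, a Notch target and repressor, was in 29.4% of basal and 98% of luminal cells. The Iroquois genes parted by paralogue: Irx2 (-2.89) and Irx1 (-1.92) were luminal, whereas Irx4 was basal. Stat5a, which relays the prolactin signal, stood at 0, 0 and 95.3 FPKM in basal and 0, 11.1 and 219 FPKM in luminal cells, a difference of -2.41. The groups overlap, since 21 basal cells were at 1 FPKM or more.

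Of 43 bZIP genes, 3 were higher (6.98%, beside 2.89% of all genes) and 9 lower (20.9%, beside 8.98%). Of the 43, 36 were detected, and of all detected genes 6.78% were higher and 21.2% lower. Xbp1, the factor of the unfolded protein response, differed by -4.51. The membrane-bound bZIP factors Creb3 (-3.18) and Creb3l1 (-1.70), cut free from the Golgi to raise secretory genes, accompanied it, with Creb3l1 in 0% of basal and 42.9% of luminal cells. Srebf1, which turns on fatty acid synthesis genes, differed by -2.24, or -1.26 among cells alike in gene number. Tsc22d3, the glucocorticoid-induced leucine zipper protein, averaged 2.03 ± 2.86 in basal and 6.52 ± 2.35 in luminal cells. Of 37 nuclear receptors, 0 were higher and 2 (5.41%, beside 8.98% of all genes) lower: the vitamin D receptor Vdr (-2.03) and the orphan receptor Rora (-1.58). Myc differed by -1.05 over all cells, -0.12 among cells alike in gene number and -0.97 without the 10 cells.

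**Figure D2:**
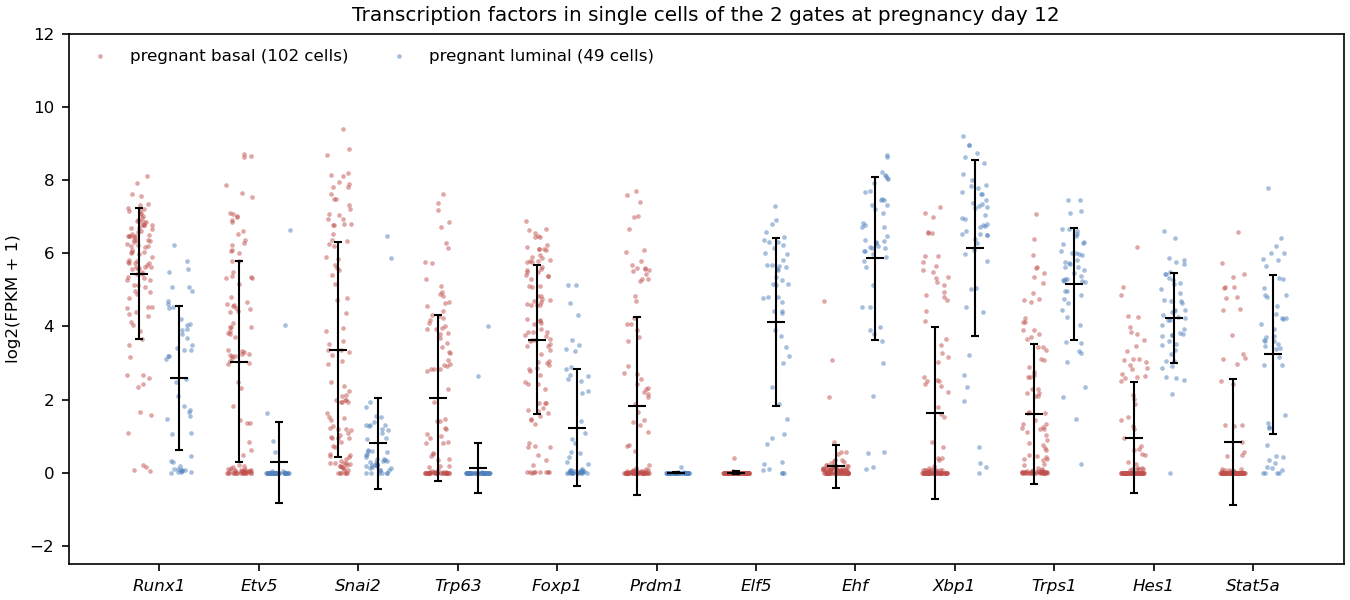
Level of 12 transcription factors in each of the basal (red, left of each pair) and 49 luminal cells (blue), as log2(FPKM + 1), with mean and SD over cells as black bars. Runx1 runs through both gates, Snai2 runs over a continuous range in basal cells, Prdm1 lies near 0 in every luminal cell, and Elf5 and Ehf lie near 0 in nearly all basal cells.

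Ligands and their receptors were read as 157 pairs of known partners, 155 of them of 2 different genes. Of the 246 genes involved, 117 were detected, 46 were higher by at least 1 in basal cells (18.7%, beside 2.89% of all genes) and 19 were lower (7.72%, beside 8.98%). The pairs were chosen with earlier results of these data known, so these shares are no independent comparison with all genes. For the same 246 genes, the ratio of mean FPKM gave 87 higher and 22 lower. In 6 pairs the ligand gene was higher in basal and the receptor gene in luminal cells, and in 3 pairs it was the reverse. By the ratio of mean FPKM these counts were 6 and 8. Both partners were basal in 5 pairs of different genes, 1 partner alone differed in 63, and neither in 78. The pairs describe transcripts only, not protein or contact.

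**Figure D3:**
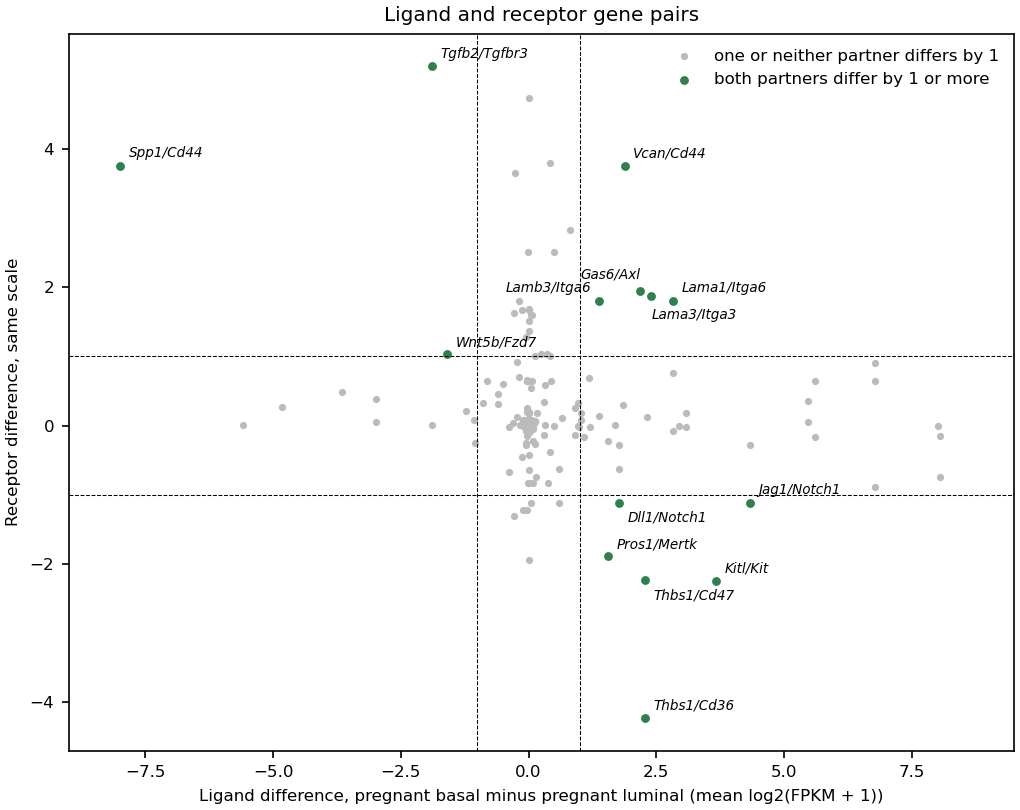
Difference (basal minus luminal, mean log2(FPKM + 1)) of the ligand gene (horizontal axis) and the receptor gene (vertical axis) in 155 pairs, with 1 point per pair and dashed lines at -1 and 1. Green points are the 14 pairs in which both partners differ by at least 1, among them 6 at the lower right with a basal ligand and a luminal receptor, and 3 at the upper left with the reverse.

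Across the layers, one pair was Kitl and Kit, stem cell factor and its receptor tyrosine kinase. Kitl stood at 0.0295, 107 and 1599 FPKM in basal cells and 0, 5.33 and 169 FPKM in luminal cells, a difference of 3.68 against 0.50 between the virgin gates. Kit was at 1 FPKM or more in 0% of basal cells and in 57.1% of luminal cells (42.2% to 71.2%), where its values ran at 0, 1.40 and 78.1 FPKM. The ligand was not limited to the basal layer: 15 of the 28 Kit-positive luminal cells carried Kitl as well.

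The Notch ligands Jag1 and Dll1 were basal. Jag1 stood at 0.0191, 63.3 and 654 FPKM in basal and 0, 0.0488 and 376 FPKM in luminal cells, a difference of 4.34. Dll1 was in 49% of basal (39% to 59.1%) and 0% of luminal cells. The receptors lay the other way, by less, and Notch2 and Notch3 were chosen after their values were seen. Notch1 was in 11.8% of basal and 44.9% of luminal cells, with a difference of -1.12 that came to -0.75 among cells alike in gene number and -0.92 under median-of-ratios scaling. Notch2 differed by -0.63 and Notch3, in 0% of basal and 14.3% of luminal cells, by -0.29. Hes1, the Notch target given above, was on the luminal side.

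The TAM receptors parted by paralogue. Gas6, a vitamin K-dependent ligand, and its receptor Axl were both basal, at differences of 2.19 and 1.95, and 31 basal cells carried both, against 1 luminal cell. Mertk was luminal at -1.89, in 4.90% of basal and 55.1% of luminal cells, while its ligand Pros1, protein S, was basal at 1.56. Among cells alike in gene number the last pair came to 0.89 for Pros1 and -1.0 for Mertk. Thbs1, thrombospondin, was in 98% of basal and 85.7% of luminal cells, at a difference of 2.28. Its receptors Cd36 (-4.24) and Cd47 (-2.24) were higher in luminal cells. Cd47 was in 48% of basal and 89.8% of luminal cells, and 49 basal and 37 luminal cells carried both Thbs1 and Cd47. Of the 6 basal cells with Cd36, a fatty acid uptake receptor also found on capillaries, 4 were the cells with endothelial markers.

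In the reverse direction, luminal Spp1 was paired with basal Cd44, the receptor for osteopontin and hyaluronan. Cd44 stood at 0, 39.6 and 464 FPKM in basal and 0, 0.0184 and 164 FPKM in luminal cells, a difference of 3.76. Its other ligand Vcan, the proteoglycan versican, was basal at 1.89. Tgfb2 was luminal at -1.89, in 27.5% of basal and 73.5% of luminal cells. Its coreceptor Tgfbr3, betaglycan, was among the most basal receptors, at 0.916, 347 and 2039 FPKM in basal and 0, 5.09 and 513 FPKM in luminal cells. Tgfbr2, also paired with Tgfb2 and named after its value was seen, differed by 0.0095. It was in 33.3% of basal and 30.6% of luminal cells. Wnt5b was in 0% of basal and 42.9% of luminal cells, and its partner Fzd7 differed by 1.03, or 0.94 under median-of-ratios scaling. Laminin genes Lama1 (2.83), Lama3 (2.41) and Lamb3 (1.38) were basal together with the integrins Itga6 (1.81) and Itga3 (1.87). Of the homophilic cadherins, Cdh3 was basal (2.34) and Cdh1 luminal (-1.90).

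Other partners differed on 1 side only, and those named here were chosen after their values were seen. Nrg1 stood at 0.157, 962 and 6167 FPKM in basal and 0, 0.0358 and 2162 FPKM in luminal cells, where the highest cell was one of the 4 with basal markers. Its receptors were scarce. Erbb3 was in 0.980% of basal and 22.4% of luminal cells (11.8% to 36.6%), and Erbb4 in 0% of basal and 4.08% of luminal cells. Osmr, the oncostatin M receptor, stood at 0.0178, 47.6 and 614 FPKM in basal and 0, 0 and 20.9 FPKM in luminal cells, a difference of 4.75, while its ligand gene Osm was listed at 0 in every cell of both gates. Lifr, the leukaemia inhibitory factor receptor, differed by 3.66 (0.40 between the virgin gates), and the chemokine scavenger Ackr3 by 3.80. Ntrk3, a neurotrophin receptor, was in 63.7% of basal and 4.08% of luminal cells, and its ligand Ntf3 in 18.6% of basal and 0% of luminal cells, with both in 16 basal cells. Growth factor receptors Fgfr1 (2.51), Fgfr2 (1.60) and Igf1r (1.67) were basal, as were the ligands Ptn (2.95), Sema3c (3.08), Pdgfa (2.82), Mdk (2.32) and Hgf (1.09), and the proteoglycan decorin, Dcn (5.61).

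Among the luminal-side signals, likewise chosen after their values were seen, Rspo1, which potentiates Wnt signalling, was in 4.90% of basal (1.61% to 11.1%) and 75.5% of luminal cells (61.1% to 86.7%), with a difference of -3.66 against -0.47 between the virgin gates. Its receptor Lgr4 was high in both gates, averaging 6.51 ± 2.01 in basal and 6.03 ± 1.73 in luminal cells. Edn1, the vasoconstrictor endothelin, was in 0% of basal and 67.3% of luminal cells (52.5% to 80.1%). Prlr, the prolactin receptor, was in 0% of basal and 69.4% of luminal cells, where it ran at 0.00850, 3.11 and 40.2 FPKM.

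Transport genes were lower in basal cells more often than higher. Of 269 in the table, 142 were detected, 18 were higher by at least 1 (6.69%, beside 2.89% of all genes) and 49 lower (18.2%, beside 8.98%). The median difference over the detected ones was -0.59, beside -0.38 over all detected genes. By the ratio of mean FPKM the counts were 53 higher and 61 lower. Gap junction genes parted by paralogue. Gja1, connexin 43, stood at 0.0339, 176 and 1249 FPKM in basal and 0, 0 and 220.0 FPKM in luminal cells, a difference of 5.49. Gjb2, connexin 26, was in 0.980% of basal and 91.8% of luminal cells, and Gjb6, connexin 30, in 0% of basal and 63.3% of luminal cells. Between the virgin gates the difference was -1.47 for Gjb2 and -0.19 for Gjb6.

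Of 32 sugar, monocarboxylate and nucleotide-sugar carriers, 0 were higher and 8 lower (25%, beside 8.98% of all genes). They include Slc5a1 (-1.62, or -0.94 among cells alike in gene number), the sodium-glucose cotransporter found in 0% of basal and 40.8% of luminal cells, and Slc35b2 (-1.99), which brings sulphate donor into the Golgi. Among 25 phosphate, vitamin and nucleoside carriers, 2 were higher (8%, beside 2.89%) and 6 lower (24%, beside 8.98%). Folr1, a folate receptor, was in 1.96% of basal and 81.6% of luminal cells, at 0, 80.8 and 474 FPKM in the luminal cells. Slc28a3, a concentrating nucleoside carrier, differed by -3.73, and Slc20a1, a phosphate carrier, by -3.55. The equilibrating nucleoside carrier Slc29a1 (1.28) and Slc44a2 (1.05), a choline transporter-like protein, were basal.

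Of 32 genes of metal handling, 4 were higher in basal cells (12.5%, beside 2.89% of all genes) and 10 lower (31.25%, beside 8.98%). The metallothioneins Mt1 and Mt2, which buffer zinc and copper, were abundant in both gates. Mt1 and Mt2 are close relatives and may share reads. Mt1 averaged 12.39 ± 1.72 in basal and 11.06 ± 1.60 in luminal cells, and Mt2 9.63 ± 2.18 in basal and 7.96 ± 2.35 in luminal cells. Zinc importer Slc39a1 was basal (1.18). Importer Slc39a4 was in 0% of basal and 46.9% of luminal cells, and Slc39a14, which also moves iron and manganese, differed by -2.19. Ferritin heavy chain, Fth1, stood at 27.1, 545 and 4593 FPKM in basal and 250.3, 3198 and 8396 FPKM in luminal cells. Every cell carried Fth1, and 1 basal cell lay above the luminal median.

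Of 32 pumps and exchangers, 1 was higher and 4 were lower, and of 38 potassium, calcium and other cation channels, 4 were higher and 3 lower. Atp2a2, the calcium pump of the sarcoplasmic reticulum, differed by 1.80, the calcium channel subunit Cacna2d1 by 1.55, and the large-conductance potassium channel Kcnma1 and its subunit Kcnmb1 by 1.43 and 1.82. The calcium release channel Itpr1 was at 1.02, or 0.99 without the 10 cells. On the luminal side were the potassium channels Kcnk1 (-3.52), Kcnn4 (-3.35) and Kcnk5 (-1.30), the chloride transporter gene Clcn3 (-3.15), the sodium pump subunit Atp1b1 (-2.22) and Slc12a2 (-1.27), which loads chloride into secretory cells. Of 32 amino acid carriers and their relatives, 2 were higher (6.25%, beside 2.89% of all genes) and 1 lower (3.125%, beside 8.98%). The higher ones were the taurine carrier Slc6a6 at 1.94 and Slc43a3, which moves purine bases, at 2.70. The lower one was the peptide carrier Slc15a2 at -2.19. Of 23 mitochondrial carriers, 1 was higher (4.35%, beside 2.89% of all genes) and 8 were lower (34.8%, beside 8.98%). The higher one was the adenine nucleotide exchanger Slc25a4 at 1.63. Among the lower ones were the dicarboxylate carrier Slc25a10 at -2.88 and the pyruvate carrier Mpc1 at -2.26.

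**Figure D4:**
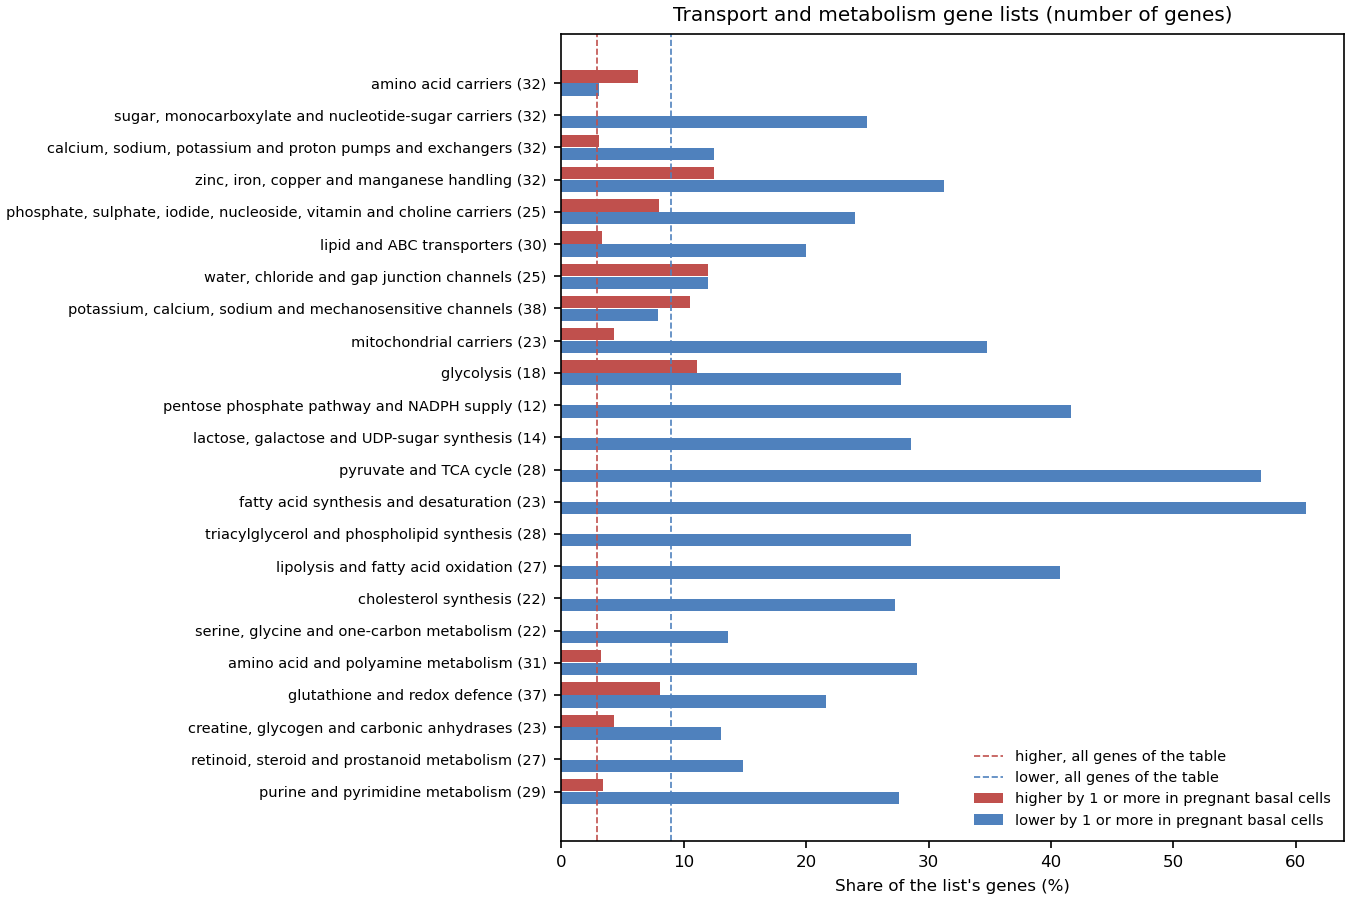
Share of each transport and metabolism list, in percent of its genes in the table, that was higher (red, upper bar) or lower (blue, lower bar) by at least 1 in the basal than in 49 luminal cells, with the number of genes in parentheses. The dashed lines mark 2.89% and 8.98%, the shares over all genes, and the longest bars are those of fatty acid synthesis (60.9% lower) and of pyruvate and the TCA cycle (57.1% lower).

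Metabolism leaned most. Of 340 genes, 262 were detected, 8 were higher by at least 1 in basal cells (2.35%, beside 2.89% of all genes) and 103 lower (30.3%, beside 8.98%). The 8 and 103 were all among the 262 detected metabolism genes, so their shares of these are larger than those over 340. The like shares over all detected genes of the table were 6.78% higher and 21.2% lower. The median difference over the detected metabolism genes was -0.70. Gene number per cell moves with this result. Among cells alike in it, 19 were higher and 81 lower, and its part in the result was not tested further. By the ratio of mean FPKM, 41 were higher and 93 lower.

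Of the transport and metabolism lists, fatty acid synthesis had the highest share of lower genes. Of its 23 genes, 0 were higher and 14 lower in basal cells (60.9%, beside 8.98% of all genes). Among cells alike in gene number 11 were lower. The score of a cell, its mean log2 level over the list, averaged 0.91 ± 0.37 in basal and 2.80 ± 0.77 in luminal cells. Fasn, fatty acid synthase, stood at 0, 0.00970 and 47.2 FPKM in basal and 0, 38.7 and 272 FPKM in luminal cells. Scd1, the desaturase, differed by -5.53, the activating enzyme Acsl1 by -4.93 (-0.69 between the virgin gates), and Acly, which supplies acetyl-CoA from citrate, by -3.12. Of 28 triacylglycerol and phospholipid genes, 0 were higher and 8 lower (28.6%, beside 8.98% of all genes). Lpin1, a phosphatidate phosphatase, was in 5.88% of basal and 91.8% of luminal cells, and Chka, choline kinase, in 42.2% of basal and 100% of luminal cells. Lpl, the lipase that frees fatty acids from blood lipids, differed by -4.82 in pregnancy and by 0.59 between the virgin gates, of which the basal one holds 6 cells with at least 5 endothelial markers.

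Of 28 pyruvate and TCA genes, 16 were lower (57.1%, beside 8.98% of all genes), and 11 among cells alike in gene number. Pdhb (-2.99) of pyruvate dehydrogenase, the citrate-splitting Acly (-3.12), citrate synthase Cs (-2.18) and Dld (-2.23), a subunit shared by the dehydrogenases, were among them. The scores averaged 2.40 ± 0.86 in basal and 3.64 ± 0.98 in luminal cells, and they overlapped. Of 27 genes of lipolysis and fatty acid oxidation, 11 were lower (40.7%), with the lipase Pnpla2 at -4.06 and its activator Abhd5 at -2.62. Of 12 genes of the pentose phosphate pathway and NADPH supply, 5 were lower (41.7%). Taldo1, transaldolase, stood at 0, 1.49 and 481 FPKM in basal and 0.0480, 248 and 716 FPKM in luminal cells, and Pgd differed by -2.51. Cholesterol synthesis counted 6 lower of 22 over all cells (27.3%), and 2 higher and 3 lower among cells alike in gene number.

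**Figure D5:**
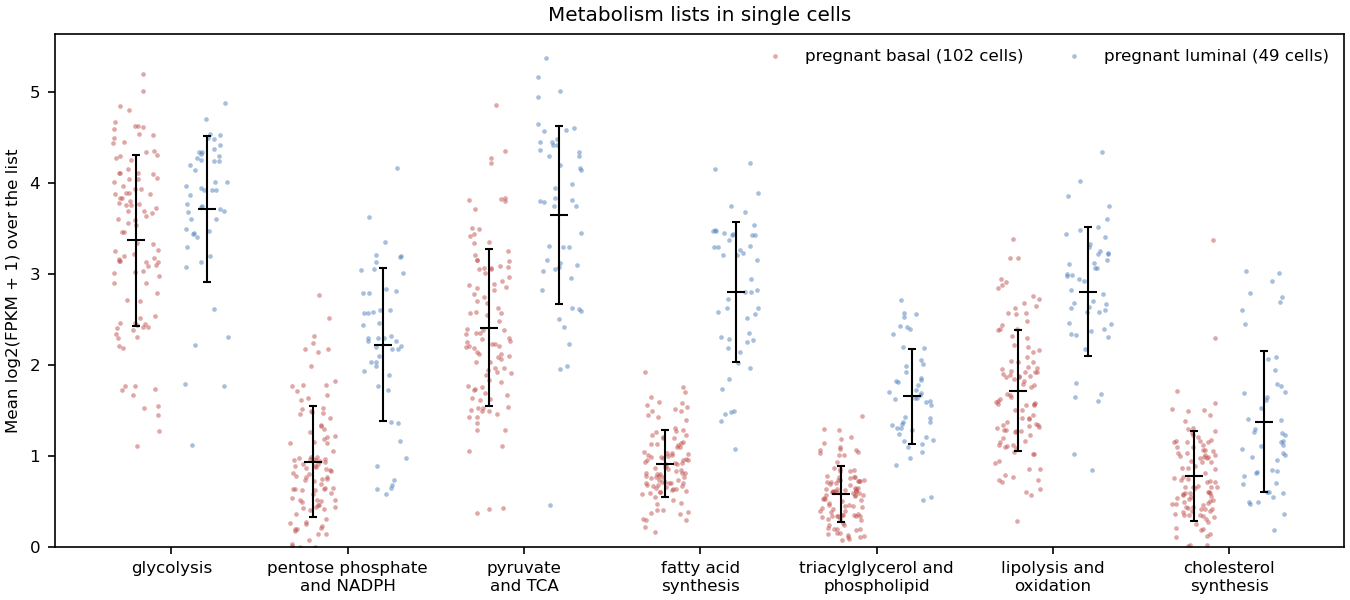
Mean log2(FPKM + 1) over the genes of 7 metabolism lists in each of the basal (red, left of each pair) and 49 luminal cells (blue), with mean and SD over cells as black bars. The gates lie farthest apart for fatty acid synthesis (means 0.91 and 2.80) and closest for glycolysis (means 3.37 and 3.71).

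Of 18 glycolysis genes, 2 were higher in basal cells (11.1%, beside 2.89% of all genes) and 5 lower (27.8%, beside 8.98%). Among cells alike in gene number the counts were 3 and 3. Ldhb, a lactate dehydrogenase subunit, stood at 0, 102.4 and 960.3 FPKM in basal and 0, 2.87 and 412 FPKM in luminal cells, and Pfkp, the platelet-type phosphofructokinase, differed by 2.06. Aldoc, aldolase C, was in 5.88% of basal and 83.7% of luminal cells, and the liver-type phosphofructokinase Pfkl differed by -1.51, or -0.24 among cells alike in gene number. In lactose and UDP-sugar synthesis 0 of 14 genes were higher and 4 lower (28.6%). B4galt1 was in every luminal cell and in 76.5% of basal cells, while Lalba, which turns it into lactose synthase, was in 6.86% of basal and 77.6% of luminal cells.

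A few enzymes went against the trend. Ckb, brain-type creatine kinase, which buffers ATP, stood at 0, 148 and 2142 FPKM in basal and 0, 0 and 322 FPKM in luminal cells, a difference of 5.47 against 1.33 between the virgin gates. Adenylate kinase Ak1 was in 45.1% of basal and 2.04% of luminal cells. Oat, ornithine aminotransferase, was basal (2.38), and Got1, aspartate aminotransferase, luminal (-3.85). In redox defence, 3 of 37 genes were higher (8.11%, beside 2.89% of all genes) and 8 lower (21.6%, beside 8.98%). Gstm5 (2.33) was basal, though the related Gstm genes may share reads, and Mgst1 (-4.56) and Prdx3 (-3.59) were luminal. Car2, carbonic anhydrase, stood at 0, 0 and 149.6 FPKM in basal and 0.0486, 157 and 1099 FPKM in luminal cells, and the retinoic acid carrier Crabp2 was in 1.96% of basal and 77.6% of luminal cells.

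Of 51 secreted proteases and inhibitors, 12 were higher in basal cells (23.5%, beside 2.89% of all genes) and 5 lower (9.80%, beside 8.98%). The protease Prss23 (4.49), the inhibitor Timp3 (4.11), the matrix protease Adamts1 (3.48) and Htra1 (3.00) led them. The membrane-anchored Prss8 (-3.62) and its inhibitors Spint1 (-2.59) and Spint2 (-2.62) were luminal. Of 54 G protein-coupled receptor and RGS genes, 6 were higher (11.1%, beside 2.89% of all genes) and 1 lower (1.85%, beside 8.98%), and among cells alike in gene number 5 and 0. Rgs2, which shortens such signals, differed by 3.21, the adhesion receptor Adgrg1 by 3.10 and the oxytocin receptor Oxtr by 2.54.

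Of 43 innate defence genes, 4 were higher in basal cells (9.30%, beside 2.89% of all genes) and 13 lower (30.2%, beside 8.98%). Cd14, the lipopolysaccharide coreceptor, stood at 0, 0 and 153 FPKM in basal and 0, 48.2 and 1193 FPKM in luminal cells. Ltf, lactoferrin, was in 0% of basal and 67.3% of luminal cells, and Pigr, which carries antibody into milk, in 0.980% of basal and 85.7% of luminal cells. Basal-side members were the chemokines Cxcl14 (3.66) and Ccl2 (2.28) and the protease inhibitor Slpi (2.31). Of 34 genes of DNA replication and mitosis, 1 was higher (2.94%, beside 2.89% of all genes) and 1 lower (2.94%, beside 8.98%). They were the cyclin Ccnd2 at 2.92 and the replication clamp Pcna at -1.26, both named after their values were seen.

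Of the markers of other cell types, none of 11 endothelial, 10 fibroblast or 10 immune markers differed by at least 1. The summed endothelial level ran from 0 to 2167 FPKM in basal cells and from 0 to 247 FPKM in luminal cells, with a median of 0 in both. Fabp4, also a capillary gene and the 1 detected gene of 8 adipocyte markers, differed by 1.21, or 0.96 without the 10 cells. Rgs5, the 1 detected gene of 8 pericyte markers, was in 31.4% of basal and 4.08% of luminal cells. Of 7 nerve markers, 1 was higher by at least 1 (14.3%, beside 2.89% of all genes). It was Ncam1, in 67.6% of basal and 2.04% of luminal cells. The 3 detected nerve markers had a median difference of -0.20. Of 15 immediate early and dissociation stress genes, 2 were higher (13.3%, beside 2.89% of all genes) and 4 lower (26.7%, beside 8.98%). All 15 were detected, and of all detected genes 6.78% were higher and 21.2% lower. The higher ones were Dusp1 (2.12) and Fos (1.04), and the lower ones Ier2, Atf3, Hspa1b and Hspa1a. What part the Rgs5, Ncam1 or stress values have in the results above was not tested.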

How the data were processed

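Single cells were caught on microfluidic chips, and their poly(A) RNA was amplified with SMARTer and made into Nextera XT libraries, per the labels' protocols. Capture sites were inspected by microscope for doublets, per the labels' protocols, and no doublet caller was run here. The submitters' processing notes name Trimmomatic 0.35, TopHat2 2.0.13 and Cufflinks 2.2.1 and the builds mm10 and GRCm38. The deposited values are FPKM per gene and cell. The unit was inferred from the values and the tools, since the table states none. Of 549706 values below 20 steps, over all genes with a fitted step, 99.3% were whole multiples of what 1 fragment is worth, within 0.05 steps. The steps were fitted to low values of these same data and gave the relative depth. The lengths of 4978 single-transcript genes then set its absolute scale. Every column matched a sample. Strand use was not stated in the labels, and near-identical relatives (Acta2 and Actg2, Mt1 and Mt2, Gstm1 and Gstm5) may share reads.

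From the FPKM, the mean over cells of log2(FPKM + 1) was computed per gate, and genes were counted from a difference of 1. Each group is 1 sample, so no test was run and no replicate was left out. No pregnant cell was left out of the values reported first. Genes named are the 10 largest differences in each direction outside contractile, milk protein and keratin lists, up to 4 detected genes per list and direction, all pairs in which both partners differ, and markers. Others are said to have been chosen after their values were seen. The members and all 51 gene lists and 157 pairs were chosen with earlier results of these data known. Of 7 list genes with no row in the table, none was counted. The calculation was run on simulated data with higher means and smaller spreads than many real genes have. That run checks the arithmetic, not how reliable a call at a difference of 1 is in these data. Promoter sequences are from RefSeq on GRCm38.p6. Alternatives were the pseudocount, scaling, the cells used, the filter on low values, the threshold and the ratio of mean FPKM. The set without 10 cells carrying other markers was chosen after seeing the data. Python 3.11.15, NumPy 2.4.6, pandas 2.3.3, SciPy 1.17.1 and Matplotlib 3.10.9 were used.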

Additional observations from a re-analysis of the deposited data

Results flagged for a closer look

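For 8 named genes the basal minus luminal difference was at least 1 in one state and at most -1 in the other. Pregnant values are from all pregnant basal and 49 pregnant luminal cells, virgin values from 34 basal and 54 luminal cells. The change of direction was not tested, since each group is 1 sample.

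Ptn, the growth factor pleiotrophin, differed by 2.95 in pregnant mice (mean log2 levels 3.40 basal and 0.45 luminal) and by -4.74 in virgin mice (2.24 basal and 6.98 luminal). Fgfr2, a fibroblast growth factor receptor, differed by 1.60 in pregnant mice (mean log2 levels 1.84 basal and 0.25 luminal) and by -2.52 in virgin mice (1.39 basal and 3.92 luminal). Sox9, a progenitor transcription factor, differed by 1.21 in pregnant mice (mean log2 levels 5.79 basal and 4.58 luminal) and by -1.88 in virgin mice (3.99 basal and 5.87 luminal). Fos, an immediate early factor, differed by 1.04 in pregnant mice (mean log2 levels 7.27 basal and 6.23 luminal) and by -2.60 in virgin mice (5.56 basal and 8.16 luminal). Ldhb, a lactate dehydrogenase subunit, differed by 2.60 in pregnant mice (mean log2 levels 5.76 basal and 3.16 luminal) and by -1.37 in virgin mice (1.75 basal and 3.12 luminal). Slc29a1, a nucleoside carrier, differed by 1.28 in pregnant mice (mean log2 levels 2.67 basal and 1.40 luminal) and by -1.32 in virgin mice (1.22 basal and 2.54 luminal). Steap4, a metal reductase, differed by 1.49 in pregnant mice (mean log2 levels 1.99 basal and 0.50 luminal) and by -1.42 in virgin mice (0.25 basal and 1.66 luminal). Cd36, a fatty acid receptor, differed by -4.24 in pregnant mice (mean log2 levels 0.44 basal and 4.67 luminal) and by 1.46 in virgin mice (1.82 basal and 0.36 luminal). 

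The virgin basal gate held 6 cells with at least 5 of 11 endothelial markers and 1 with at least 5 fibroblast markers. Without these 7 cells the virgin difference of Cd36 was -0.08, and 6 of the 8 virgin basal cells with Cd36 were among them. For Ldhb it was -0.92, for Slc29a1 -1.0, and for the other 5 genes it stayed past -1. Among pregnant cells alike in gene number, the difference was 0.79 for Slc29a1, 0.90 for Steap4 and 0.97 for Fos. The part of tissue dissociation in Fos was not tested.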

How the results depend on the processing

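Counts are given as higher and lower in pregnant basal cells. With a pseudocount of 0.1 they were 853 and 3428 for detected genes, 77 lower for transcription factors, 29 lower for ligand and receptor genes, 33 and 81 for transport, and 20 and 155 for metabolism, with 11 pairs of basal ligand and luminal receptor. With a pseudocount of 10 they were 235 and 389 for detected genes, 7 and 9 for factors, 22 and 7 for ligands and receptors, 7 and 20 for transport, and 5 and 44 for metabolism, with 2 such pairs and 1 of the reverse kind. At a threshold of 2 they were 223 and 438, 5 and 12, 23 and 8, 3 and 22, and 51 lower for metabolism, with 3 pairs and 1 reverse pair. By the ratio of mean FPKM the higher counts were 1368 for detected genes, 83 for factors, 87 for ligands and receptors, 53 for transport and 41 for metabolism, with 8 reverse pairs. Among cells alike in gene number 19 metabolism genes were higher.

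Rescaling without milk proteins, median-of-ratios scaling, leaving out cells off their gate, leaving out the 10 cells, and dropping the filter kept each of these counts within 1.5 times. Of 256 named genes, 113 came under the threshold with a pseudocount of 10, 27 by the ratio of mean FPKM, 22 among cells alike in gene number and 13 under median-of-ratios scaling. Differences moved by over 1.5 times in 224 with a pseudocount of 0.1, 229 with 10 and 173 by the ratio. The same held for 60 among cells alike in gene number and for 21 without the 10 cells. In 3 genes the sign changed. Gyg came to 0.054 among cells alike in gene number, and Gstm1 to -0.085 and Tpi1 to 0.37 by the ratio of mean FPKM. The cause was not tested. In median-of-ratios scaling the log2 ratio of the median factors, basal over luminal, was -0.17. FPKM were divided by each cell's factor, so a typical basal cell was raised relative to a typical luminal cell. No paired analysis was possible because each group is 1 sample and no result comes from a test. Depth limits genes near 1 FPKM most.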
